A study of Rattus norvegicus with 12 samples.

Results

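Rodents carry several miRNA clusters that are active mainly in the germline, the early embryo and the trophoblast, and this account covers the probes for these clusters in rat plasma. Members were chosen by name alone: every endogenous probe whose miR number lies between miR-290 and miR-295, or is miR-297, miR-298, miR-302, miR-367, miR-463, miR-465, miR-466, miR-467, miR-471, miR-669, miR-741, miR-742, miR-743, miR-871, miR-878, miR-880, miR-881 or miR-883, whatever its letter or arm. The rule found 27 of the 420 endogenous probes in the table analysed. Of its 24 miR numbers, 4 (miR-302, miR-367, miR-467 and miR-669) had no probe there. The plasma came from 12 female Wistar rats, with 1 sample for each rat. The pregnant group held 6 rats at day E14.5 of gestation, aged 103 to 373 days, and the control group 6 non-pregnant rats aged 110 to 269 days, and each group included 2 rats of at least 239 days. Blood was taken from the heart after death and spun free of cells and platelets, and the rice miRNA osa-miR-414 was added to every sample during RNA preparation. The labels describe monitoring of the oestrous cycle for the pregnant group only. The source tissue of a circulating miRNA is not recorded by this assay, and release from fewer cells cannot be told apart from less release per cell.

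miRNAs are short RNAs that guide the silencing machinery to messenger RNAs, mostly through the seed, the stretch from base 2 to base 8. The miR-290 to miR-295 cluster is the dominant miRNA cluster of mouse embryonic stem cells, and it is also transcribed in trophoblast and germ cells. Its best known members share an AAGUGC core in or next to the seed, and they are known for shortening the G1 phase by repressing cell cycle inhibitors. The miR-466 group sits with miR-467 and miR-669 in Sfmbt2, an imprinted gene expressed from the paternal copy that the placenta needs for growth. miR-298 belongs to the imprinted Gnas locus. The remaining members form fast-evolving clusters on the X chromosome that are known mainly from the testis.

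RefSeq (GRCr8 build) listed at least 1 mature sequence for each of the 27 probes. For 12 of them the probe name matched a mature miRNA exactly, while for the other 15 the name does not give the arm of the hairpin, so that the arm measured is not known. The 9 probes for miR-290 to miR-295 fall within chr1:74878019-74880123, inside the span of Nlrp12, and miR-295 has a further locus at chr1:82352164-82352222. The miR-466 probes fall within chr17:72913060-72945568, inside the span of Sfmbt2 (chr17:72844037-73038599). In this build miR-297 lies at chr10:98715721-98715743, away from Sfmbt2, although it was listed with that cluster here. The 13 X-linked probes fall within chrX:150444098-150488232.

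The first set is shown because its probes gave the highest counts among the members (miR-466d, miR-466b and miR-465) or were listed with the Sfmbt2 cluster and had very low counts (miR-466c and miR-297). Seeds are in capitals, and both listed arms are given where the probe name has none.
rno-miR-466d: aUGUGUGUguauguucuuuugu
rno-miR-466b-5p: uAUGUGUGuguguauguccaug
rno-miR-466b-3p: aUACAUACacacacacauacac
rno-miR-466c-5p: uGUGAUGUguguauguacaug
rno-miR-466c-3p: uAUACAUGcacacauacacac
rno-miR-297: aUGUAUGUgugcauguaugcaug
rno-miR-465-5p: uAUUUAGAacggugcuggugug
rno-miR-465-3p: uGAUCAGUgccuuucugaguag

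The second set holds sequences of probes listed under the stem cell cluster, shown for their seeds and the AAGUGC core, again with seeds in capitals. Not every listed arm is shown, and miR-295-3p is listed only outside the span of the cluster.
rno-miR-291a-3p: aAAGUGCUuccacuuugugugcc
rno-miR-291b: aAAGUGCAuccauuuuguuagu
rno-miR-292-3p: aAGUGCCGccagguuuugagugu
rno-miR-295-3p: aAGUGCUAcuacuuuugggugu
rno-miR-290: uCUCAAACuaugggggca
rno-miR-292-5p: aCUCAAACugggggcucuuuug
rno-miR-293-5p: aCUCAAACugugugacacuuu
rno-miR-294: cUCAAAAUggaggcccuaucu

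Within the stem cell cluster, miR-290, miR-292-5p and miR-293-5p share the seed CUCAAAC, which no other rat mature sequence in the RefSeq table has. miR-291a-3p and miR-291b differ in the last base of the seed. The sequence listed for miR-294 lacks the AAGUGC core. On the X chromosome, miR-743a-5p and miR-871-5p share the seed AUUCAGA. miR-466d and miR-466b-5p have different seeds but share a run of 13 bases, and each shares a run of 11 bases with miR-466c-5p. With miR-297 the longest shared run was shorter, at 7 bases for miR-466d and 8 for miR-466b-5p. A UGUGUG motif, searched on the miRNA strand, occurred in 6 of the 41 mature sequences listed for the members and in 11 of the 693 rat mature sequences of the table (1.59%). It was present in miR-466d, miR-466b-5p, miR-466c-5p and miR-297, and so in sequences of probes at both ends of the range of counts.

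On the nCounter each count is 1 imaged barcode. The sum over endogenous probes was 6969 to 10176 counts in control rats and 5163 to 30301 in pregnant rats. Counts of different probes are not calibrated against each other, and the smallest value in the table was 1, so a value of 1 may stand for no signal. The background was taken from the 4 exogenous probes for which no target was added (from thale cress ath-miR159a, from worm cel-miR-254 and cel-miR-248, and from rice osa-miR442). Their mean lay between 7.25 and 15.75 counts per rat, and their mean + 2 SD between 17.9 and 49.1. These probes differed among themselves, with mean counts of 19.5 ± 7.59 for ath-miR159a, 15.4 ± 5.76 for cel-miR-254, 4.5 ± 1.78 for osa-miR442 and 3.58 ± 2.02 for cel-miR-248 (SD, n = 12 rats). A count above their level is therefore a statement about these 4 probes, and not about every probe without a target. The probe for the added osa-miR-414 had 19.5 ± 12.8 counts (SD, n = 12 rats), the same mean as ath-miR159a. A count at the level of these probes therefore does not show that a target was absent. Blank lanes were not analysed here.

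Only 3 of the 27 probes stood clear of this background: miR-466d and miR-466b from Sfmbt2 and miR-465 from the X chromosome. Each was above the mean + 2 SD of the exogenous probes in at least 11 of 12 rats. These 3 members are 11.1% of the 27, against 13.8% of all endogenous probes that were above this level in at least 6 rats, so the share of members was near the background share. A further 3 members (miR-871, miR-295 and miR-463) were above it in 1 to 3 rats, so that 6 members passed in at least 1 rat, against 31% of all, and 21 members were above it in 0 rats, or 77.8% against 69% of all endogenous probes. At the lower level of the mean + 1 SD, miR-871 joined the other 3, so that 4 members passed in 6 rats or more, against 22.1% of all. Above the exogenous mean itself in 6 rats or more were 11 members (40.7%), against 42.1% of all. Those above the highest exogenous probe of the rat in 6 rats or more were the same 4 members, against 19.3% of all.

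**Figure D1:**
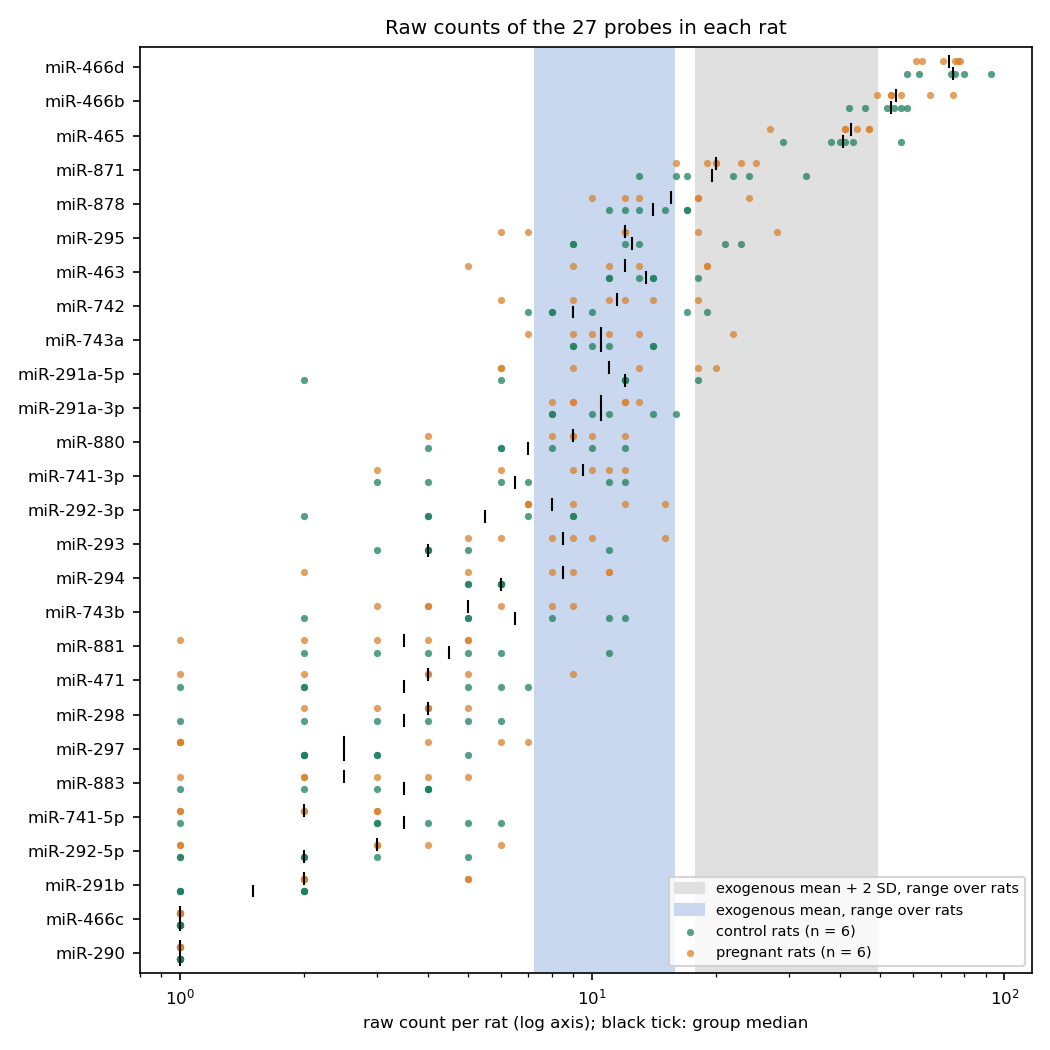
Raw counts of the 27 probes (rows, ordered by mean count) in 6 control and 6 pregnant rats on a log axis, with 1 point per rat, a black tick at each group median and shaded bands for the range over rats of the exogenous mean and of the exogenous mean + 2 SD. The points of miR-466d, miR-466b and miR-465 lie to the right of the band of the exogenous mean in every rat, and the control and pregnant points overlap in each row. Most points of miR-465 and some of miR-466b lie inside the band of the mean + 2 SD, which spans all rats.

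The probe for miR-466d had the highest mean count of the members, at 72.4 ± 9.995 (SD, n = 12 rats). In control rats its count was 58 at the lowest, 75 at the median and 93 at the highest, and in pregnant rats 61, 73.5 and 78. It was above the exogenous mean + 2 SD in 12 of 12 rats, which held for 4.76% of the endogenous probes. No rat stood apart, and the range of the pregnant rats lay inside that of the control rats.

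The probe for miR-466b, from the same host gene, had a mean count of 55 ± 8.72 (SD, n = 12). Its counts were 42, 53 and 58 (lowest, median and highest) in control rats and 49, 54.5 and 75 in pregnant rats. It was above the exogenous mean + 2 SD in 11 rats. The exception was control replicate 3, the rat with the highest background, where 42 counts stood against a level of 49.1. The groups overlapped between 49 and 58 counts.

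The third probe of this locus, miR-466c, had a count of 1 in all 12 rats. It was 1 of 14 endogenous probes with that record, and miR-290 was another. The remaining probe of the list, miR-297, had between 1 and 7 counts, under the exogenous mean in every rat.

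The probe for miR-465, an X-linked miRNA known from the testis, had a mean count of 41.2 ± 7.74 (SD, n = 12). Its counts were 29, 40.5 and 56 in control rats and 27, 42.5 and 47 in pregnant rats (lowest, median and highest). It too was above the exogenous mean + 2 SD in 11 rats and below it in control replicate 3, with 43 counts. Both group means were 41.2 counts. The lowest of these 3 probes had more counts than any of the other 24 members in every rat. miR-466d exceeded miR-466b in 11 rats, and miR-466b exceeded miR-465 in 10.

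**Figure D2:**
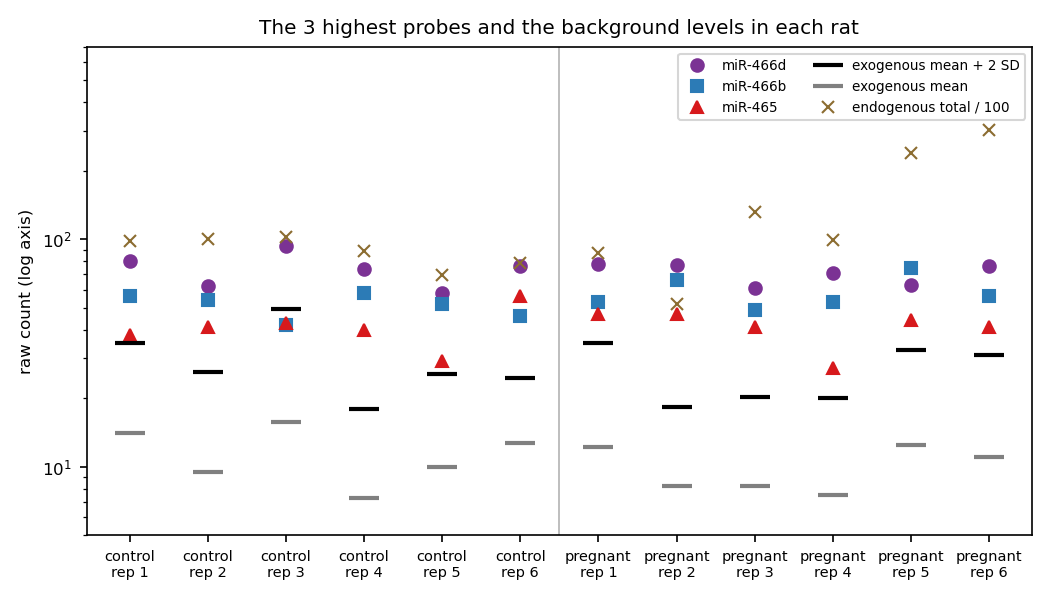
Raw counts (log axis) of miR-466d, miR-466b and miR-465 in each of the 12 rats, with the mean and the mean + 2 SD of the 4 exogenous probes in that rat as dashes and the endogenous total divided by 100 as crosses. The 3 probes stay between 27 and 93 counts while the endogenous total runs from 5163 to 30301, and only in control replicate 3 do miR-466b and miR-465 fall under the mean + 2 SD.

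A second comparison set each probe against the mean of the 4 exogenous probes within each rat on the log2 scale. Of these, ath-miR159a and cel-miR-254 lay over that mean and osa-miR442 and cel-miR-248 under it in their mean counts. A call against it therefore does not by itself mean that a probe was detected or undetected. The test was an exact, two-sided permutation of the signs of the 12 differences, and p was adjusted by Benjamini-Hochberg across all 420 probes. The smallest p this design allows is 0.000488. Of the members, 5 were called higher than the exogenous mean (18.5%), against 30.2% of all endogenous probes, and 16 were called lower (59.3%), against 51%. The other 6 were called neither higher nor lower. The median difference was -0.61 on the log2 scale for the members and -0.55 for all endogenous probes.

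The 5 higher probes were miR-466d, miR-466b, miR-465, miR-871 and miR-878, each higher in 12 of 12 rats with an exact adjusted p of 0.000949. The mean log2 difference from the exogenous mean was 2.78 ± 0.33 for miR-466d, 2.38 ± 0.48 for miR-466b, 1.95 ± 0.37 for miR-465, 0.94 ± 0.40 for miR-871 and 0.48 ± 0.28 for miR-878 (SD, n = 12). When the highest exogenous probe of each rat took the place of the mean, only the first 3 were called higher, against 12.6% of all endogenous probes, and 23 were called lower, against 72.6%. miR-871 was then level with that probe, at a mean log2 difference of 0.02, and above it in 6 rats. miR-878 lay below it, at -0.45.

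miR-871 had counts of 13, 19.5 and 33 in control rats and 16, 20 and 25 in pregnant rats (lowest, median and highest). For miR-878 they were 11, 14 and 17 in control rats and 10, 15.5 and 24 in pregnant rats. Both probes belong to the X-linked clusters, and in both the groups overlapped. The remaining X-linked probes comprised 7 called lower than the exogenous mean (miR-471, miR-741-3p, miR-741-5p, miR-743b, miR-880, miR-881 and miR-883) and 3 that were not called (miR-463, miR-742 and miR-743a). Their mean counts ran from 2.83 for miR-741-5p to 13.1 for miR-463. Of the 13 X-linked probes, 23.1% were thus called higher and 53.8% lower, against 30.2% and 51% of all endogenous probes.

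None of the 9 probes of the stem cell cluster was called higher than the exogenous mean, against 30.2% of all endogenous probes. Of the 9, 6 were called lower (66.7%), against 51% of all endogenous probes. They were miR-290, miR-291b, miR-292-3p, miR-292-5p, miR-293 and miR-294, with mean counts between 1 and 7.67. The 3 that were not called were miR-291a-3p at 10.8 ± 2.62 counts, miR-291a-5p at 11.2 ± 5.61 and miR-295 at 14.2 ± 6.86 (SD, n = 12). miR-295 was the only probe of this cluster above the exogenous mean + 2 SD in any rat, and that was 1 rat. Of all endogenous probes, 31% were above that level in at least 1 rat. miR-298, the member from the Gnas locus, had 1 to 6 counts and was called lower, with a mean log2 difference of -1.68 ± 0.73 (SD, n = 12).

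The Dlk1-Dio3 cluster, the other large imprinted miRNA cluster with placental expression, had 3 of 49 probes above the exogenous mean + 2 SD in at least 6 rats (6.12%). The let-7 family, widely expressed in adult tissue, had 4 of 7 (57.1%). The X-linked miR-450a cluster had 1 of 6 (16.7%), and the share of all endogenous probes was 13.8%. These shares are given as counts only and were not tested against each other.

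The summed count of the members varied less between rats than the endogenous total. It was 349 counts at the median in control rats (281 to 390) and 366 in pregnant rats (275 to 417), so that the highest rat had 1.52 times the lowest, while the endogenous total spanned 5.87 times. As a result, the members took 7.11% of the endogenous counts in pregnant replicate 2, which had the lowest total, and 1.38% in pregnant replicate 6, which had the highest. The total includes abundant probes with wide ranges, such as miR-122 (67 to 5714 counts) and miR-451 (48 to 2529). The members' sum was not compared with that of other probes at a similar level. miR-466d, miR-466b and miR-465 together held between 41.5% and 54.9% of the members' counts. Single members with few counts varied more in ratio: the highest rat had 1.60 times the lowest for miR-466d, 10 times for miR-291a-5p (2 to 20 counts) and 11 times for miR-881 (1 to 11 counts).

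The variance of raw counts over the 12 rats, divided by their mean, is 1 where only counting error is present. It was 1.38 for miR-466d, 1.38 for miR-466b and 1.46 for miR-465. Over the 25 members with any variation its median was 1.36 and its range 0.581 to 3.32. The exogenous probes without a target had 0.707 to 2.95. Among the 42 endogenous probes with a mean of 30 to 150 counts, a range chosen after the counts had been seen, the 39 that are not members ran from 0.248 to 414, with a median of 21.3. These 39 fell on either side of a gap, with 18 under 5 and 21 over 16, and the 3 members were on the low side.

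**Figure D3:**
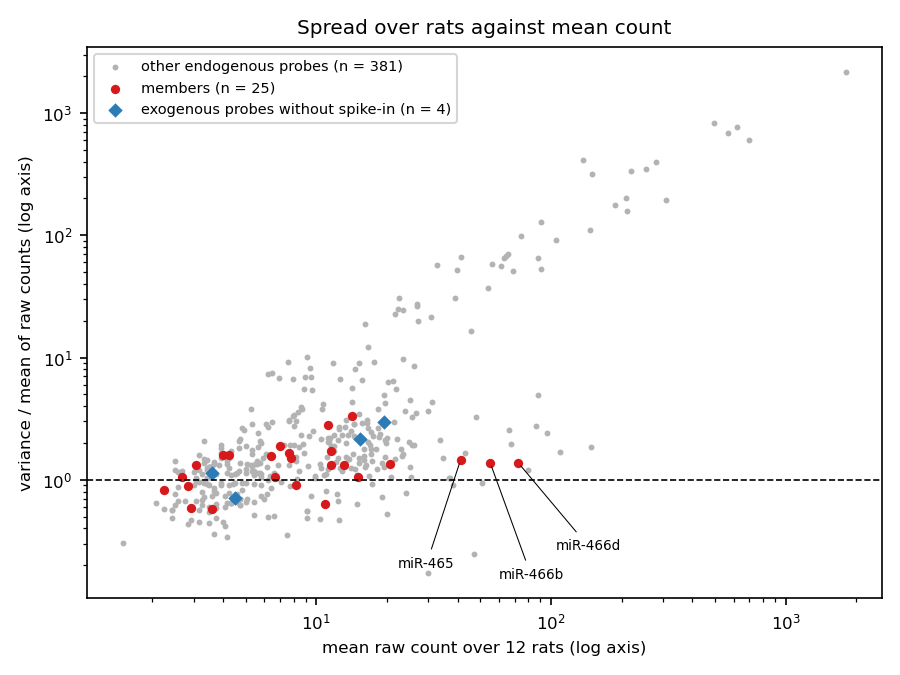
Variance divided by mean of the raw counts over 12 rats against the mean raw count, both on log axes, for members, other endogenous probes and the 4 exogenous probes without a spike-in. Probes with the same count in every rat are left out, and the dashed line at 1 marks counting error alone. The 25 members lie between 0.581 and 3.32, the range of miR-466d, miR-466b and miR-465 being 1.38 to 1.46.

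The blood cell and liver markers spanned wider ranges in the same rats. The summed count of the red cell markers miR-144 and miR-451 was 149 to 737 in control rats and 55 to 2672 in pregnant rats. That of the platelet markers miR-126 and miR-223 was 64 to 167 and 25 to 841. The hepatocyte marker miR-122 had 115 to 2632 counts in control rats and 67 to 5714 in pregnant rats. The muscle markers miR-1, miR-133a, miR-133b and miR-206 summed to 90 to 167 in control rats and 67 to 305 in pregnant rats, and of these miR-133a (11 to 28 counts, variance over mean 1.23) and miR-133b (2 to 7 counts, 0.655) varied as little as the members. With a smallest table value of 1, no marker could be at 0. The part of blood cell, muscle or liver RNA in the members' counts was not tested.

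Pregnant and control rats were compared to ask whether these clusters changed in maternal plasma at E14.5. No member was called in either direction. A filter that asked for 10 counts or more in 6 or more rats kept 187 endogenous probes (44.5%) and 11 of the 27 members (40.7%). By the edgeR quasi-likelihood fit with TMM scaling 0 of the 11 members tested had an adjusted p under 0.05, as did 0% of all probes tested, and 0 of the 11 had an unadjusted p under 0.05, against 5.88% of all. The lowest adjusted p among the members was 0.832, for miR-463. In the same fit on all 420 probes, 0 of 27 members passed with or without adjustment, against 0% and 4.76% of all. DESeq2 and limma-voom also called 0 of the 11 with adjustment, and without it 0 of the 11 against 4.28% and 3.21% of the 187 probes. The raw counts of the groups overlapped in all 27 members, and probes without overlap were 0% of the endogenous probes.

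For the 3 members that stood clear of the background, the differences were small against their errors. The log2 fold change, pregnant over control, was -0.07 (standard error 0.24) for miR-466d, 0.12 (0.23) for miR-466b and -0.04 (0.23) for miR-465, with edgeR adjusted p of 0.967, 0.967 and 0.972. The fold change of miR-871 was -0.06 (standard error 0.26, edgeR adjusted p = 0.967). For miR-466b the mean in pregnant rats was 58.7 ± 9.85 raw counts against 51.3 ± 6.15 in control rats (SD, n = 6 each), and its sign turned to -0.10 when library size replaced TMM.

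The other 7 members in this test lay near the exogenous probes. Of the X-linked ones, miR-463 had 11, 13.5 and 18 counts in control rats and 5, 12 and 19 in pregnant rats, miR-742 had 7, 9 and 19 against 6, 11.5 and 18, and miR-743a had 9, 10.5 and 14 against 7, 10.5 and 22 (lowest, median and highest). Of the stem cell cluster, miR-295 had 9, 12.5 and 23 counts in control and 6, 12 and 28 in pregnant rats, miR-291a-3p 8, 10.5 and 16 against 8, 10.5 and 13, and miR-291a-5p 2, 12 and 18 against 6, 11 and 20. The groups overlapped in each of them. The log2 fold changes of these 6 and of miR-878 ran from -0.23 (standard error 0.22) for miR-463 to 0.09 (0.32) for miR-291a-5p.

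The members with the smallest unadjusted p all had few counts. Of these 5, miR-291b, miR-292-3p and miR-293 belong to the stem cell cluster, and miR-741-5p and miR-881 to the X-linked clusters. miR-293 had 3, 4 and 11 counts in control rats and 5, 8.5 and 15 in pregnant rats (lowest, median and highest). Its log2 fold change was 0.70 (standard error 0.33, edgeR adjusted p = 0.835 on all 420 probes). After TMM scaling, 6 of 6 pregnant rats exceeded the mean of the control rats. In raw counts 5 did, with an exact permutation p of 0.0433 before and 1 after adjustment over the 420 probes, of which 2.38% passed 0.05 unadjusted.

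miR-292-3p had 2, 5.5 and 9 counts in control rats and 7, 8 and 15 in pregnant rats. Its log2 fold change was 0.64 (standard error 0.35). The opposite arm of the same hairpin, miR-292-5p, had 1 to 5 counts in control and 1 to 6 in pregnant rats, with a log2 fold change of 0.28 (0.44). miR-291b had counts of 1 or 2 in the control rats and 2 to 5 in the pregnant rats. Its log2 fold change was 0.88 (0.33), with an unadjusted edgeR p of 0.103, larger than this standard error would give. The edgeR adjusted p on all 420 probes was 0.835 for miR-292-3p and miR-291b and 0.996 for miR-292-5p. The group means of these probes were all under the mean of the exogenous probes, which was 11.5 ± 3.17 in control rats and 9.96 ± 2.22 in pregnant rats (SD, n = 6 each).

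In the other direction, miR-741-5p had 1, 3.5 and 6 counts in control rats and 1, 2 and 3 in pregnant rats. Its log2 fold change was -0.90 (standard error 0.35, edgeR adjusted p = 0.835). The unadjusted edgeR p was 0.0624, again larger than this standard error would give. miR-741-5p was the single member under 0.05 in the methods' t-test on counts scaled by the total RNA factor. There 1.67% of all endogenous probes were under 0.05, and after Benjamini-Hochberg adjustment 0 members passed. The exact permutation test of the same values gave p = 0.0281 before and 1 after adjustment. The opposite arm, miR-741-3p, had a log2 fold change of 0.19 (standard error 0.34, adjusted p = 0.996). miR-881 had 2 to 11 counts in control rats and 1 to 5 in pregnant rats, and a log2 fold change of -0.67 (0.40, adjusted p = 0.835).

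The sign of most members depended on the scaling. On all 420 probes with TMM, 14 of the 25 members that varied were higher in pregnant rats, with a median log2 fold change of 0.03 against 0.06 for all endogenous probes. With library size the median of all endogenous probes moved to -0.42, the median of the members was -0.43, and 3 of 25 were higher (miR-291b, miR-292-3p and miR-293). Under that scaling the log2 fold change was -1.49 for miR-741-5p and -1.13 for miR-881, and the lowest edgeR adjusted p of a member was 0.449. Unadjusted, these 2 members were under 0.05, against 8.57% of all 420 probes, while miR-741-5p alone was so with the total RNA factor (2.86% of all) and with RLE (4.76% of all). With no scaling the medians were 0.05 and 0.07, and 16 of 25 were higher. On all 420 probes, the members' median thus differed by little from that of all endogenous probes under each of these scalings. In the filtered fit with TMM the median of the 11 members was -0.06, against 0.05 for all 187 probes. There 8 of the 11 were lower, while 55.6% of all were higher. With library size on the filtered probes the medians were -0.47 and -0.33, and 0 of the 11 were higher, against 12.8% of all. These gaps were not tested.

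**Figure D4:**
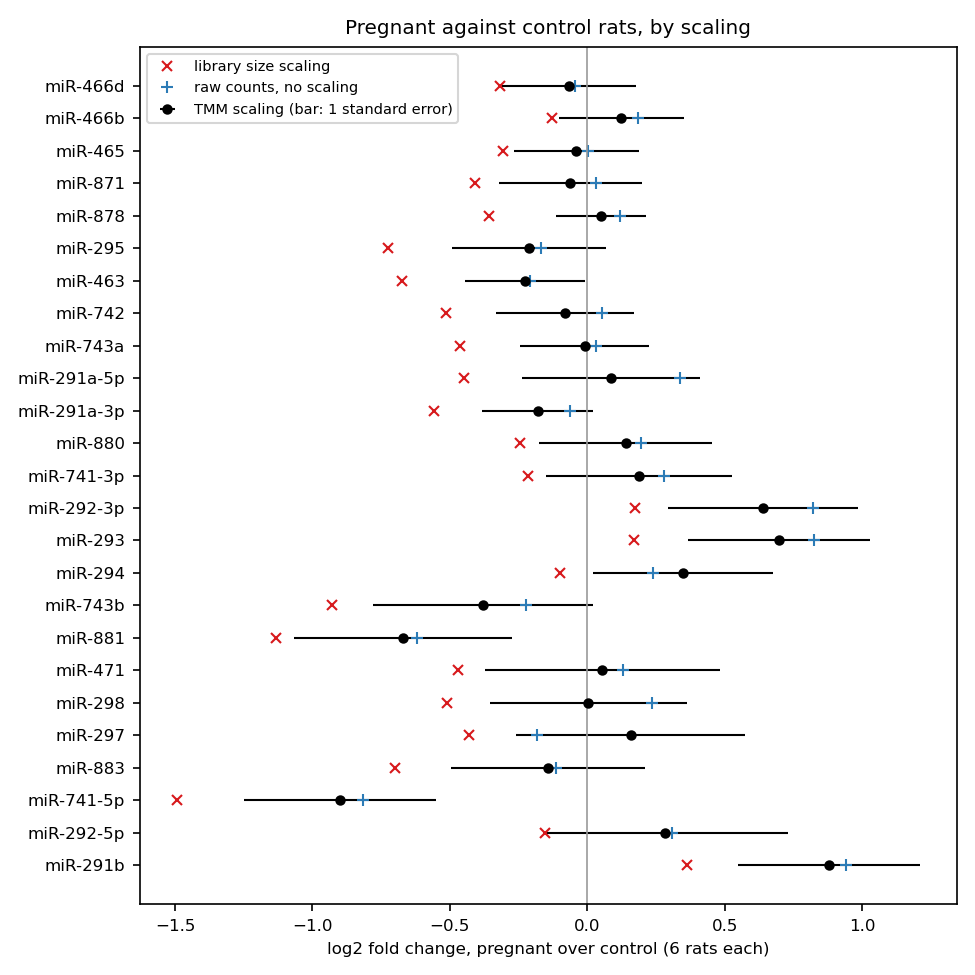
Log2 fold change, pregnant over control (6 rats each), for the 25 members that varied, ordered by mean count. Black points with bars of 1 standard error are the edgeR values with TMM, crosses those with library size and plus signs the difference of mean log2 raw counts. At few counts the bars can be too short for the edgeR p. Library size places every member further to the left than TMM, and the largest differences (miR-291b at 0.88 and miR-741-5p at -0.90) belong to probes with under 10 counts in every rat.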

How the data were processed

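The authors deposited raw counts per probe for 12 rats (nCounter, rat miRNA codeset), with no background correction or normalisation. Negative, positive and ligation controls were not used here. The table holds 429 probes, and 0 columns were left unused. Members, lists and tests were chosen with earlier results of these data known. Named members were those above the exogenous mean + 2 SD in at least 6 rats, those that passed the count filter, the 5 with the smallest unadjusted p on all 420 probes, and miR-290 to miR-295 and miR-298.

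Counts were fitted with edgeR 4.0.16 (glmQLFit, glmQLFTest, TMM), and members outside the count filter were taken from the fit on all 420 probes. Each standard error is the absolute log2 fold change divided by the square root of F. At few counts it can be smaller than the edgeR p allows, and it then overstates the precision. DESeq2 1.42.0, limma 3.58.1, scipy 1.17.1, pandas 2.3.3, numpy 2.4.6, Python 3.11.15 and R 4.3.3 were used. The total RNA factor rests on each rat's geometric mean of the 38 endogenous probes above the exogenous mean + 1 SD in all rats. For the t-test, counts were multiplied by the average of these geometric means over the rats, divided by the rat's own. In edgeR the rat's geometric mean took the place of the library size. Each rat counted as 1 replicate, and 0 of 66 pairs were identical. Low counts limit the precision. The procedures were tested on simulated data.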

Additional observations from a re-analysis of the deposited data

Results flagged for a closer look

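In 3 of the 50 sets of 6 counts with any variation (each member in each group), 1 rat lay far from the others by Dixon's ratio of gap to range at the 95% level, which chance passes in about 1 set in 20. The probe for miR-465 had 27 counts in pregnant replicate 4, where the next lowest pregnant rat had 41. The probe for miR-293 had 11 counts in control replicate 3 and at most 5 in the other control rats, and that for miR-297 had 5 counts in the same rat and at most 3 in the others. Control replicate 3 also had the highest mean of the exogenous probes, 15.75 counts; the part of this background in the 2 values was not tested.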

How the results depend on the processing

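The number of members called between the groups by adjusted p stayed at 0 under every scaling, filter, test, covariate and left-out rat that was run. The replicate block gave 0 calls as well, and moved the probes under an unadjusted 0.05 from 11 to 3 of 187. Same-numbered rats are different animals and their deviations correlated between -0.31 and 0.25, with 2 of 12 rats closest to their own number, so the numbers do not pair the rats. Scalings, block, age term and left-out rats without the count filter, and the unscaled raw counts, were added after the counts had been seen. The methods' t-test called 1 member unadjusted and 0 after Benjamini-Hochberg adjustment. Its number ran from 0 to 2 when each rat was left out: 0 without control replicates 1, 2 or 5 and 2 without pregnant replicate 2. Unadjusted, edgeR on all 420 probes had 0 to 2 members under 0.05 with a rat left out, against 11 to 38 of all probes: miR-293 without control replicate 3 or pregnant replicates 2 or 5, miR-741-5p without control replicate 6 or pregnant replicate 3, miR-881 without pregnant replicate 2 and miR-292-3p without pregnant replicate 5. Above background were 11 members with the exogenous mean as the level (42.1% of all probes), 6 when 1 rat sufficed (31%) and 1 when all 12 rats were required (4.76%), in place of 3 (13.8%), and 3 with any rat left out. Against the highest exogenous probe, 3 members were called higher in place of 5 and 23 lower in place of 16. Against the exogenous mean with a rat left out, 5 to 6 were higher and 16 lower.

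Fold changes near 0 changed sign, with the cause not tested. On the log2 scale miR-465 became 0.0175 by the methods' t-test and 0.00327 in raw counts, miR-466b -0.10 with library size, miR-466d 0.00972 with limma-voom and miR-871 0.0304 in raw counts. With each rat left out, miR-465 ran from -0.18 to 0.0400, miR-466b from -0.0142 to 0.18, miR-466d from -0.18 to 0.0370 and miR-871 from -0.20 to 0.0754. The 5 members with the smallest unadjusted p, all with few counts, kept their sign with each rat left out. Their ranges were 0.63 to 1.06 for miR-291b, 0.49 to 0.79 for miR-292-3p, 0.58 to 1.01 for miR-293, -1.13 to -0.75 for miR-741-5p and -0.88 to -0.35 for miR-881. They were picked by that p from these same rats, so a kept sign adds no support.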
